A study of Mus musculus with 4 samples.

Results

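RNA-binding proteins that set the life of cytokine mRNAs are described here in 4T1 cells, a mouse mammary carcinoma line. They are the 10 genes of a list of RNA-stability regulators, matched by Ensembl gene identifier to 10 of the 21840 rows of the expression table. The list was drawn up from the proteins' known roles: the Regnase family (Zc3h12a, Zc3h12c), the tristetraprolin family (Zfp36, Zfp36l1, Zfp36l2), the roquins (Rc3h1, Rc3h2) and binding proteins linked to IL-17 signalling (Arid5a, Elavl1, Srsf1). RNA sequencing compared cells given recombinant IL-17A (rIL17) with cells given phosphate-buffered saline (PBS), with 2 libraries per group and 4 in all. All 4 libraries came from wild-type 4T1 cells, labelled epithelial and grown with fetal bovine serum, penicillin and streptomycin, so the groups differ in the labels only by the treatment. The labels used here state neither the dose nor the length of the treatment. Whether replicate libraries were made from separate cultures is also unstated, so a p-value reflects only how far these libraries vary, and that variation may be technical.

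Cytokine and chemokine mRNAs are short-lived because proteins bind elements in their 3′ untranslated regions (UTRs) and bring in nucleases. Regnase proteins and roquins recognise small stem-loops, and Regnase-1, the product of Zc3h12a, cuts the RNA itself. Tristetraprolin and its relatives bind AU-rich elements and recruit the CCR4-NOT deadenylase, which removes the poly(A) tail. Other proteins act the opposite way: HuR, encoded by Elavl1, binds AU-rich RNA and in general lengthens its life, and Arid5a stabilises Il6 mRNA. IL-17A is known for raising the output of genes such as Il6 and Cxcl1 in epithelial cells both by transcription and by slowing the decay of their mRNAs.

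The libraries held 17511450 to 17970104 reads assigned to genes. PBS replicate 2 stood apart: on the first principal component, which held 72.3% of the variance of 12515 well-measured genes, the rIL17 libraries scored -24.0 and -17.7, PBS replicate 1 scored 5.21 and PBS replicate 2 scored 36.5. Genes with transcripts poor in G and C were low in that library. In the 729 of these genes with a GC content under 40%, the median log2 difference of PBS replicate 2 from PBS replicate 1 was -0.47, and their median log2 difference of rIL17 from PBS was 0.54. In the 2272 genes with 55 to 60% GC the same medians were 0.08 and -0.06. Each regulator's log2 fold change is therefore also given with a correction for GC content and without PBS replicate 2. Markers of epithelium were expressed: 8 of 8 were measured, and their summed level was 45758 and 47812 normalized counts in the rIL17 libraries, against 53749 and 57978 in the PBS libraries. The fibroblast markers measured, 5 of 6, summed to 2971 and 2967 in the rIL17 libraries and 2444 and 2554 in the PBS libraries, but 3 of the 5 were lower in rIL17 cells and the median log2 fold change was -0.47. Of 7 leukocyte markers 3 were measured, with sums of at most 15.1 and the defining marker Ptprc at 0 in at least 1 library. Of 3 endothelial markers 2 were measured, with sums of at most 7.04 and Cdh5 at 0 in at least 1 library. The part of these marker levels in the results on the regulators was not tested. In bulk RNA, fewer cells of a type and less RNA per cell cannot be told apart.

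The mRNAs of the regulators themselves carry copies of the elements that these proteins read. The 3′ UTRs below were taken from GENCODE M21 on GRCm38 (mm10), from 1 transcript per gene, the 1 with the longest coding sequence. For Srsf1 this gave 411 bases. Other 3′ UTRs of the same gene were not searched, so a stated absence holds for that transcript alone. The heptamer UAUUUAU, the core bound by the tristetraprolin family, was counted on the transcript strand with overlapping copies counted separately. It also contains the shorter AUUUA. In Zfp36, which encodes tristetraprolin, a 3′ UTR of 774 bases held 3 copies, shown because they are the family's own element in the mRNA of its founding member. Capitals mark the heptamer.
Zfp36, chr7:28376969-28376991, minus strand: gggcccuuUAUUUAUgacgacuu
Zfp36, chr7:28376954-28376976, minus strand: gacgacuuUAUUUAUuguauuaa
Zfp36, chr7:28376929-28376951, minus strand: uuuuauagUAUUUAUauauauug
Il6, chr5:30019731-30019753, plus strand: augauugaUAUUUAUuauuuuua
The Il6 site is given beside them because Il6 is a classical target of these proteins. Of the 10 regulators, 7 had at least 1 UAUUUAU, against 26.3% of the 13781 3′ UTRs of tested genes. Elavl1 had 8 copies in 4218 bases, Zfp36l1, Zfp36l2 and Rc3h2 had 3 each, and Zc3h12c and Rc3h1 had 2 each. Because longer UTRs hold more copies by length alone, the density is also given: it was 0.904 per kb over the regulators and 0.289 per kb over all the 3′ UTRs, whose median length was 905 bases.

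Stem-loops of the kind read by Regnase-1 and the roquins were searched as 5 Watson-Crick pairs closing a loop of a pyrimidine (C or U), a purine (A or G) and another pyrimidine, which allows 8 loops, on the transcript strand. Zc3h12a held 3 in a 3′ UTR of 856 bases and no UAUUUAU. Rc3h1 held 4 (2 of them overlapping), Rc3h2 held 2, Zc3h12c held 1, and the other 6 regulators held none. All 3 of Zc3h12a are printed, with 1 each of Rc3h1 and Rc3h2, chosen because their sequences match; the other 5 stem-loops found in the regulators are not printed. Capitals mark the loop, and 2 bases are given on either side of the stem.
Zc3h12a, chr4:125119068-125119084, minus strand: ugauacaCAUuguaucu
Zc3h12a, chr4:125118886-125118902, minus strand: uaggcacCAUgugccug
Zc3h12a, chr4:125118662-125118678, minus strand: auuuaaaUAUuuuaaau
Rc3h1, chr1:160971659-160971675, plus strand: uaacuucUGUgaaguug
Rc3h2, chr2:37373808-37373824, minus strand: uaacuucUGUgaaguug
Nfkbiz, chr16:55812613-55812629, minus strand: uuguuucUAUgaaacaa
Ier3, chr17:35822873-35822889, plus strand: uauguucUGUgaacacg
The stem-loop printed for Rc3h1 and the 1 printed for Rc3h2 were identical over all 17 bases, although the genes lie on different chromosomes. Nfkbiz and Ier3, both known Regnase-1 targets, are shown for comparison. At least 1 such stem-loop occurred in 4 of the 10 regulators and in 20.6% of all 3′ UTRs, with densities of 0.377 and 0.191 per kb. A match describes the letters only and is no evidence of binding. Nor does the lack of a match exclude a site: the search found none in Il6, an mRNA that Regnase-1 degrades.

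All 10 regulators were expressed, and the members of each family stood at very different levels. Per kb of exon, Zfp36l2 was the most abundant, with 2073 ± 42.6 normalized counts per kb in rIL17 cells and 2059 ± 181 in PBS cells (SD, n = 2 each, as for all means here). Normalized counts are read counts divided by a scaling factor for each library. The splicing factor Srsf1 followed with 1138 ± 99.4 per kb in rIL17 cells and 736 ± 165 in PBS cells, and Zc3h12a with 683 ± 25.0 and 515 ± 1.74. Zfp36l1 (246 per kb in rIL17 cells and 220.2 in PBS cells), Elavl1 (187 and 165) and Arid5a (109 and 112) came next. Rc3h1 averaged 116 per kb in rIL17 cells and 91.9 in PBS cells, and Zfp36 averaged 70.9 and 82.7. Zc3h12c (32.3 and 29.6) and Rc3h2 (44.1 and 27.0) were the least abundant. The lengths are those of all annotated exons together, so a gene whose long exons are not all used is set low. They came to 19624 bases for Rc3h2, 12540 for Arid5a and 3470 for Zfp36. The order of the genes and the family shares below rest on these lengths.

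In the PBS libraries, neighbours in that order overlapped for Rc3h1 with Zfp36 and for Zc3h12c with Rc3h2, and the other neighbours did not overlap. In the rIL17 libraries the level of Rc3h1 lay above that of Arid5a, and that of Rc3h2 above that of Zc3h12c, in both libraries. Within the tristetraprolin family, Zfp36l2 made up 86.8% and 86.7% of the level per kb in the rIL17 libraries and 87.3% and 87.1% in the PBS libraries, while Zfp36 itself gave at most 3.77% in any library. Within the Regnase pair, Zc3h12a made up 95.2% and 95.7% in the rIL17 libraries and 93.7% and 95.5% in the PBS libraries. Within the roquin pair the share of Rc3h1 was 71.2% and 73.7% in the rIL17 libraries and 77.0% and 77.7% in the PBS libraries, so these groups did not overlap.

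**Figure D1:**
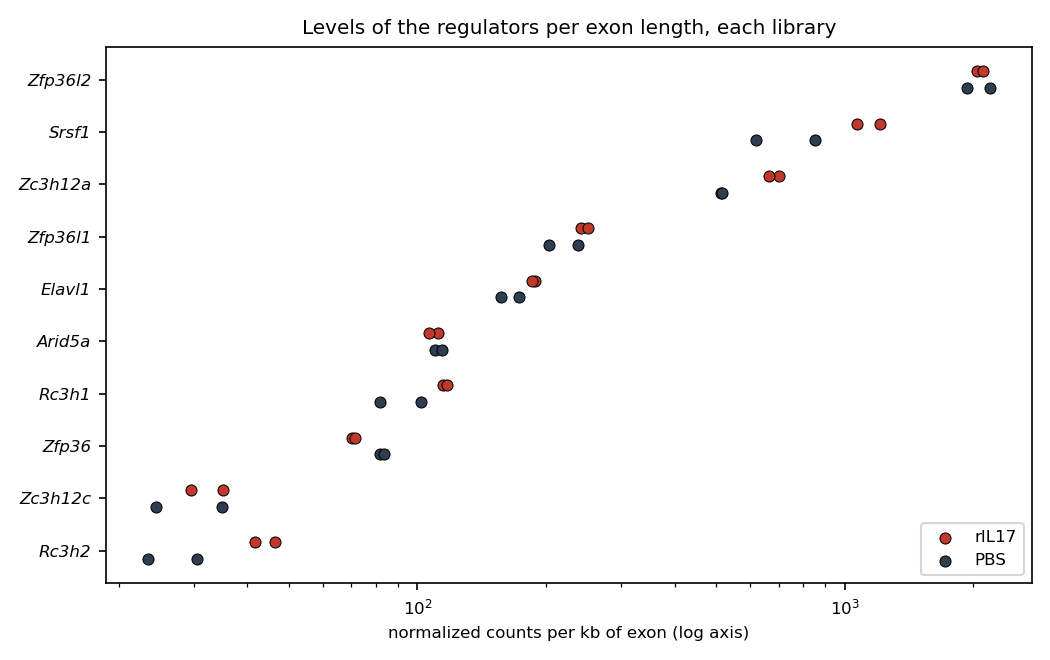
Level of each regulator in each library, in normalized counts per kb of exon on a log axis, with rIL17 points above PBS points and genes ordered by their PBS mean. Zfp36l2 lies near 2000 per kb in all 4 libraries, while Zc3h12c and Rc3h2 lie at the low end.

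The comparison of rIL17 with PBS asked which of these regulators respond at the RNA level to the cytokine. No regulator passed limma's test at an adjusted p below 0.05 over all genes, which was also the case for every gene of the table: 0 of 10 regulators were called, against 0.00% of 20677 genes tested (2642 genes had an unadjusted p below 0.05). With a stricter filter on low counts, 101 of 12515 genes passed, or 0.807%, and again 0 of the 10 regulators, all of which were in that set. At an unadjusted p below 0.05, 3 regulators were higher in rIL17 cells (Zc3h12a, Rc3h2 and Srsf1), against 7.63% of all genes, and 1 was lower (Zfp36), against 5.15%. By limma with the prior variance estimated robustly, 2 regulators passed, Zc3h12a (adjusted p = 0.0257) and Rc3h2 (adjusted p = 0.0360), among 268 genes called.

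By sign alone, 8 of the 10 regulators were higher in rIL17 cells and 2 lower, with a median log2 fold change of 0.17, against 0.01 over all genes tested. Without PBS replicate 2, 6 were higher and 4 lower with a median of 0.08, and without PBS replicate 1 the median was 0.34. The count of 8 became 7 with upper-quartile or total-count scaling and with limma-voom, where Zfp36l2 changed sign. Both rIL17 libraries lay above both PBS libraries for 6 regulators, against 25.4% of all genes, and below both for 1, against 20.0%. The other 3 overlapped. Among the well-measured genes the share above depended on GC content. It was 74.5% under 40% GC, where Rc3h2 lies, and 48.0% at 40 to 45%, where Srsf1 and Rc3h1 lie. At 45 to 50%, the range of Elavl1 and Zfp36l1, it was 23.1%, and at 55 to 60%, the range of Zc3h12a, 11.4%. In 7 of the 10, PBS replicate 2 was lower than PBS replicate 1.

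**Figure D2:**
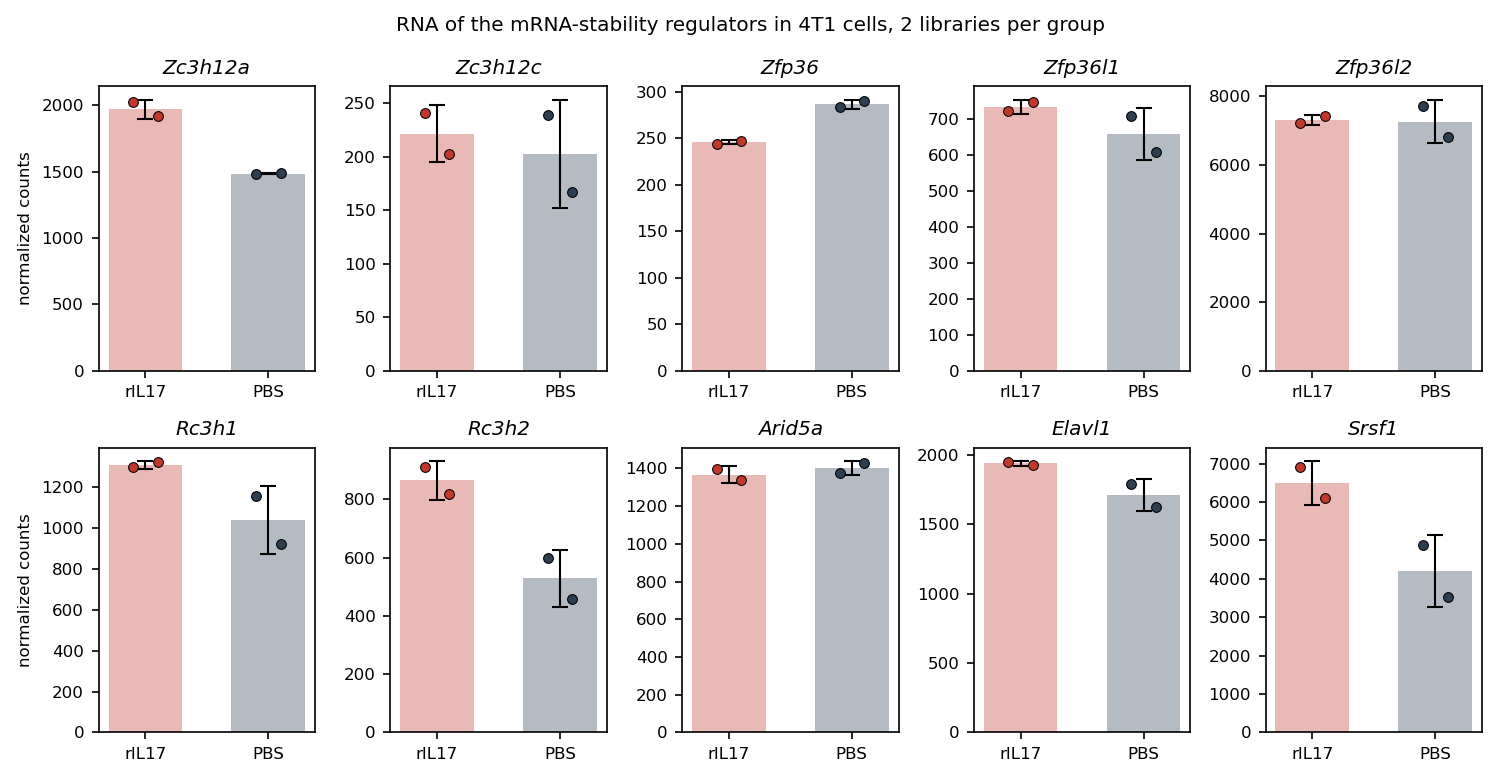
Normalized counts of the 10 regulators in rIL17 (left) and PBS (right) libraries; bars are means from 0, error bars are SD (n = 2) and points are libraries. The rIL17 points lie above both PBS points for Zc3h12a, Zfp36l1, Rc3h1, Rc3h2, Elavl1 and Srsf1, and below both for Zfp36.

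In the Regnase family, Zc3h12a had the smallest p of the 10 regulators and its relative Zc3h12c showed no separation of the groups. Zc3h12a (chromosome 4, 125118423 to 125127840, minus strand) encodes Regnase-1, the endoribonuclease that degrades Il6, Nfkbiz and its own mRNA. It had 2021 and 1919 normalized counts in the rIL17 libraries, against 1482 and 1489 in the PBS libraries. The PBS libraries were nearly equal and both rIL17 libraries lay clearly above them. The means were 1969.6 ± 72.1 in rIL17 cells and 1485 ± 5.02 in PBS cells, a ratio of 1.33.

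On the log2(normalized count + 1) scale used for all fold changes here, the difference of Zc3h12a was 0.41 with a standard error of 0.05 and a 95% interval of 0.27 to 0.55. Its unadjusted p of 0.0017 placed it at rank 88 of all genes, but the limma adjusted p was 0.369, and 0.0641 under the stricter filter. Among all 24 alternatives the fold change ranged from 0.36 to 0.54. Over the alternatives with all 4 libraries the limma adjusted p ranged from 0.00242 to 0.394. The transcript is rich in G and C (57.1%), a range in which the median gene was 0.06 lower in rIL17 cells on the log2 scale. After GC correction the difference was 0.54 on the log2 scale, with a limma adjusted p of 0.0758, or 0.0190 when the stricter filter was also applied. The change was as large without PBS replicate 2, at 0.41.

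Zc3h12c encodes Regnase-3, a related ribonuclease best known from macrophages. It had 240.3 and 203 normalized counts in the rIL17 libraries and 238 and 167 in the PBS libraries, and the groups overlapped. The log2 fold change was 0.14 with a 95% interval of -0.50 to 0.79 (limma adjusted p = 0.792), so the interval includes changes larger than that of Zc3h12a in either direction. The sign turned after GC correction and when PBS replicate 2 was left out, to -0.11 in each case.

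In the tristetraprolin family the 3 members differed in direction, and Zfp36, the founding member, was the only regulator of the 10 with both rIL17 libraries below both PBS libraries. Zfp36 (chromosome 7, 28376784 to 28380253, minus strand), whose UAUUUAU copies are shown above, had 244 and 248 normalized counts in the rIL17 libraries, against 284 and 290.4 in the PBS libraries. The spread within each group was small beside the gap between the groups. The means were 246 ± 2.43 in rIL17 cells and 287 ± 4.82 in PBS cells, a ratio of 0.857. The log2 fold change was -0.22 with a standard error of 0.07 and an unadjusted limma p of 0.0397. That standard error depended on the filter. Under the stricter filter it was 0.11, with a confidence interval of -0.48 to 0.04 that includes no change. The limma adjusted p was 0.373, 0.367 under the stricter filter, and between 0.281 and 0.795 over the alternatives with all 4 libraries. After GC correction the difference was -0.09, and without PBS replicate 2 it was -0.20.

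Zfp36l1 and Zfp36l2 encode the other CCCH-type relatives, which use the same AU-rich element. Zfp36l1 had 721 and 748 normalized counts in the rIL17 libraries and 709 and 608 in the PBS libraries. The rIL17 libraries were both above, but PBS replicate 1 was close behind. Its log2 fold change was 0.16 (95% interval -0.12 to 0.45, limma adjusted p = 0.549), with 0.23 after GC correction and 0.05 without PBS replicate 2. Zfp36l2, the most abundant regulator, had 7211 and 7424 normalized counts in the rIL17 libraries and 7719.6 and 6816 in the PBS libraries, and both rIL17 values lay between the PBS values. Its log2 fold change was 0.01 with a 95% interval of -0.21 to 0.24, and its sign differed between scalings. It was 0.14 after GC correction and -0.08 without PBS replicate 2.

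Both roquin genes had higher values in rIL17 cells, and both transcripts are poor in G and C. Roquin-1 and roquin-2, encoded by Rc3h1 and Rc3h2, are RING-type ubiquitin ligases that bind stem-loops through a ROQ domain and bring mRNAs to the deadenylase. Rc3h2 had 912 and 818 normalized counts in the rIL17 libraries, against 598 and 459 in the PBS libraries. The groups were far apart, with PBS replicate 2 the lowest. The means were 865 ± 66.0 in rIL17 cells and 529 ± 98.3 in PBS cells, a ratio of 1.64, the largest of the 10 regulators. The log2 fold change was 0.72 (standard error 0.16, 95% interval 0.25 to 1.18, unadjusted p = 0.0137). The limma adjusted p was 0.373, 0.0922 under the stricter filter, and between 0.00531 and 0.394 over the alternatives with all 4 libraries. At a GC content of 38.8% it falls among genes whose median log2 difference was 0.54. The GC correction left 0.25 (limma adjusted p = 0.211), and leaving out PBS replicate 2 left 0.53.

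Rc3h1 had 1297 and 1323 normalized counts in the rIL17 libraries, against 1156 and 923 in the PBS libraries. The rIL17 libraries agreed closely and both PBS libraries were lower, by unequal amounts. The log2 fold change was 0.34 (standard error 0.13, 95% interval -0.03 to 0.71, limma adjusted p = 0.413), with a GC content of 41.7%. It was 0.11 with the GC correction and 0.18 without PBS replicate 2. The part of the GC trend and of PBS replicate 2 in the values of both roquin genes was not tested beyond these alternatives.

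The IL-17-linked binding proteins included 1 gene with a large difference, Srsf1, and the stabilisers Elavl1 and Arid5a with small ones. Srsf1 encodes SF2/ASF, a splicing factor that in mouse cells also binds chemokine mRNAs such as Cxcl1 and shortens their life, an effect that IL-17 signalling relieves. It had 6899 and 6097 normalized counts in the rIL17 libraries, against 4870.4 and 3537 in the PBS libraries. The rIL17 libraries were both higher, but the spread inside each group was wide. The means were 6498 ± 567 in rIL17 cells and 4204 ± 943 in PBS cells, a ratio of 1.55. The log2 fold change was 0.64 (standard error 0.19, 95% interval 0.10 to 1.19, unadjusted p = 0.0307). The limma adjusted p was 0.373, 0.127 under the stricter filter, and between 0.00410 and 0.394 over the alternatives with all 4 libraries. Its GC content was 40.6%, and the log2 fold change was 0.32 with the GC correction and 0.41 without PBS replicate 2.

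Elavl1 had 1949 and 1925 normalized counts in the rIL17 libraries, against 1789.6 and 1626 in the PBS libraries. The rIL17 libraries were nearly equal and lay above both PBS libraries. The log2 fold change was 0.18 (95% interval -0.01 to 0.37, limma adjusted p = 0.397) and kept that value with the GC correction, while it was 0.11 without PBS replicate 2. Ccl25 overlaps Elavl1 on the opposite strand with 96.3 to 132 normalized counts, and no source used here gives the strand setting of the counting. The other overlapping genes that have a row in the table had at most 8.95 normalized counts in any library. Mir6244, AC132455.1 and Gm11508, which lie opposite Zc3h12c, Zfp36l2 and Srsf1, were not analysed here.

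Arid5a had 1399 and 1337 normalized counts in the rIL17 libraries and 1378.5 and 1429 in the PBS libraries, and the groups overlapped. Its log2 fold change was -0.04 with a 95% interval of -0.19 to 0.11, so a change as large as that of Zc3h12a lies outside the interval. It was 0.09 with the GC correction and -0.01 without PBS replicate 2.

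**Figure D3:**
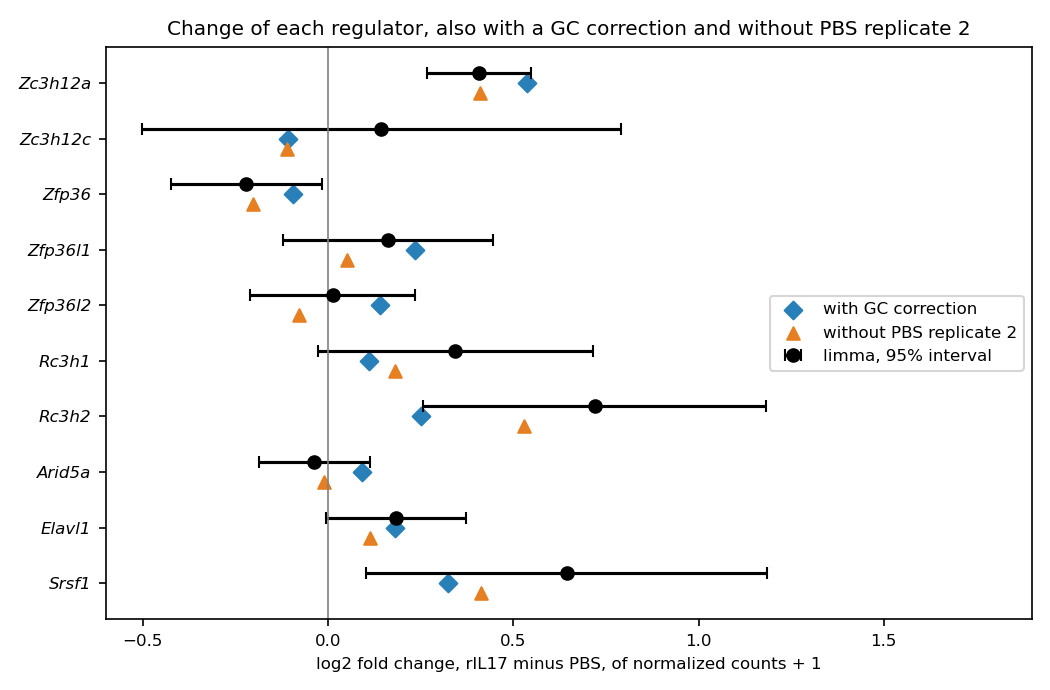
Log2 fold change of rIL17 minus PBS for each regulator, with the limma estimate and its 95% interval (black), the value after GC correction (blue) and the value without PBS replicate 2 (orange). Zc3h12a stays at 0.41 or above in all 3, while Rc3h2 is at 0.72, 0.25 and 0.53 and Srsf1 at 0.64, 0.32 and 0.41.

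The regulators also differed in how they sat against genes of like GC content. Zc3h12a stood at 0.41 where the median of the 2272 genes in its range was -0.06, and Arid5a, in the same range, stood at -0.04. Rc3h2 at 0.72 lay above a median of 0.54, and Zc3h12c at 0.14 lay below a median of 0.19. Srsf1 at 0.64 and Rc3h1 at 0.34 lay above that same median of 0.19. With GC contents of 40.6% and 41.7% they lie toward the low end of that range, 40 to 45%. After the GC correction Srsf1 was at 0.32 and Rc3h1 at 0.11. Zfp36 at -0.22 lay below a median of -0.06. Over the 10 regulators the median log2 fold change after GC correction was 0.16, against 0.06 over all genes, with 8 higher and 2 lower. The 2 lower ones were then Zc3h12c and Zfp36.

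**Figure D4:**
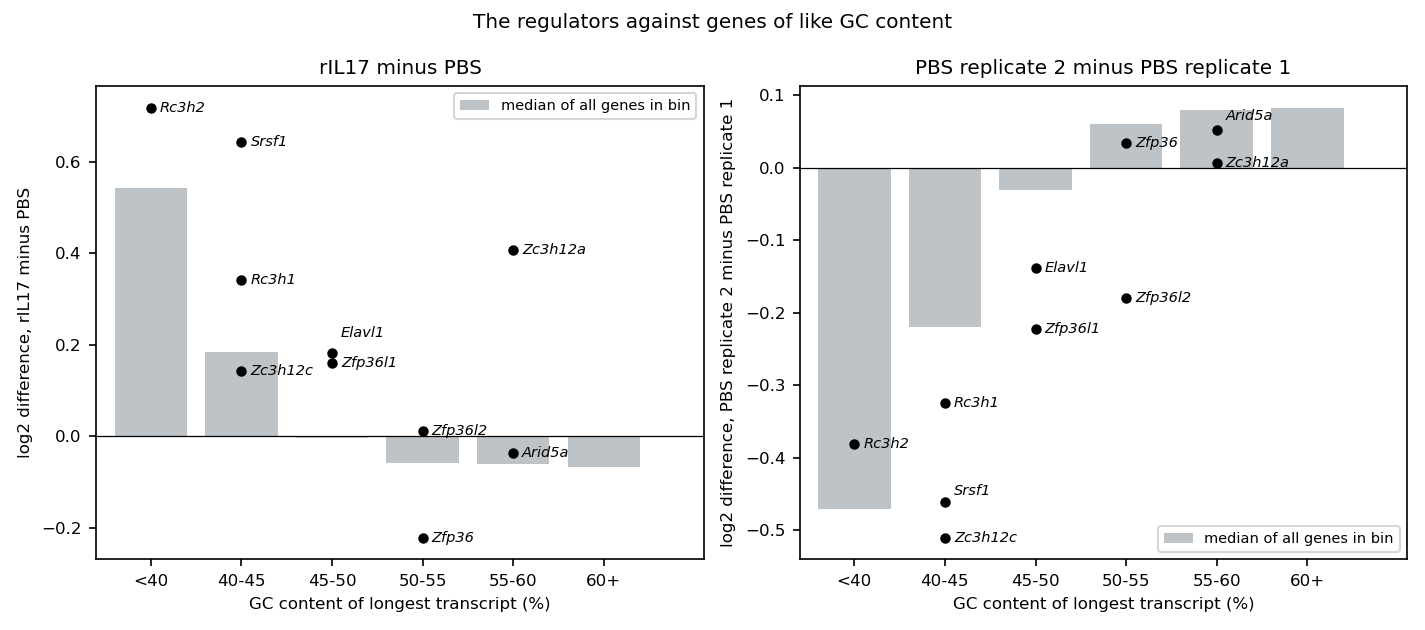
Log2 difference of rIL17 minus PBS (left) and of PBS replicate 2 minus PBS replicate 1 (right) against the GC content of the longest transcript in percent; grey bars are medians of all genes past the stricter filter and points are the regulators. Genes under 40% GC have medians of 0.54 on the left and -0.47 on the right, and Zc3h12a lies at 0.41 on the left in a range whose median is -0.06.

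Relatives of the regulators and other proteins that bind cytokine mRNAs gave no call by limma with either filter. That holds for all 4 libraries, with treatment as the only term and no GC correction or other change. Of 10 paralogs and relatives listed, 7 were tested; 5 were higher in rIL17 cells and 2 lower, and 0 passed limma's test with either filter (2 had an unadjusted p below 0.05). Arid5b, a relative of Arid5a, averaged 1580.9 ± 2.35 normalized counts in rIL17 cells and 1267 ± 78.8 in PBS cells, a log2 fold change of 0.32 (limma adjusted p = 0.370). It passed in 5 of 24 alternatives, among them the stricter filter with the GC correction (limma adjusted p = 0.0468). Over the alternatives with all 4 libraries the limma adjusted p of Arid5b lay between 0.0186 and 0.408. Zc3h12b, the Regnase-2 gene, averaged 12.5 ± 2.11 in rIL17 cells and 4.93 ± 1.35 in PBS cells. The neuronal HuR relative Elavl3 had 2.01 and 3.01 normalized counts in the rIL17 libraries and 0.98 and 0.99 in the PBS libraries, too few for a fold. Of 14 other binding proteins, 11 were higher and 3 lower, 0 passed, and the median log2 fold change was 0.08. Tia1, a stress-granule protein that binds AU-rich RNA, had 0.48 (GC content 41.2%, 0.22 with the GC correction). Pum2, which encodes a repressor that binds 3′ UTRs, had 0.32, and 0.12 with the GC correction. Both Tia1 and Pum2 passed in 2 of 24 alternatives.

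The machinery that these proteins recruit split nearly evenly by direction. Of 37 deadenylation, decapping and exosome genes listed, 36 were tested; 19 were higher in rIL17 cells and 17 lower, the median log2 fold change was 0.02, and there were 0 calls by limma with either filter (1 had an unadjusted p below 0.05). Cnot6l and Cnot7, which encode catalytic deadenylase subunits of CCR4-NOT, had log2 fold changes of 0.59 and 0.67. Their GC contents were 37.6% and 38.2%, and with the GC correction the values were 0.02 and 0.15. Lsm1, a subunit of the ring that promotes decapping, had -0.22. Of 17 genes of the signalling pathways that act on the regulators, 5 were higher and 12 lower, with a median of -0.03, or 0.06 with the GC correction, and 0 calls (1 had an unadjusted p below 0.05). The RNA helicase gene Ddx3x had 0.51, and 0.22 with the GC correction. Ikbkb, which encodes a kinase that phosphorylates Regnase-1 for degradation, had -0.11, and the receptor chain gene Il17rc had -0.13. With the GC correction these were -0.0029 and -0.0057.

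The mRNAs listed here as targets of these proteins had a larger median difference than the 10 regulators' own mRNAs. Of 22 target mRNAs, 19 were higher in rIL17 cells and 3 lower, 17 had both rIL17 libraries above both PBS libraries, against 25.4% of all genes, and the median log2 fold change was 0.60, against 0.01 over all genes. By limma over all 20677 genes 0 targets passed. At an unadjusted p below 0.05, 13 were higher, against 7.63% of all genes, and 1 lower, against 5.15%. By limma under the stricter filter 8 of 20 rose, against 0.623% of all genes, and 1 fell, against 0.184%. Those that rose were Lcn2, Cebpd, Csf3, Ier3, Cxcl1, Cxcl5, Il6 and Nfkbiz, and Plau, the urokinase gene, fell. Apart from the 3 described next, these were named after their values were seen. Under the stricter filter fewer targets passed with either rIL17 library left out, and more with either PBS library left out. Such a fit leaves 1 library in a group. Over the fits with a library left out, the log2 fold change was 2.87 to 3.06 for Il6, 1.73 to 1.77 for Lcn2 and 1.24 to 1.39 for Cebpd. The target list was drawn from known IL-17 and inflammatory genes with earlier results of these libraries known, so its direction is no independent evidence. Whether the regulators act on each listed mRNA in these cells was not tested.

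Il6 had 81.4 and 71.2 normalized counts in the rIL17 libraries, against 8.83 and 8.95 in the PBS libraries. Its log2 fold change was 2.96 ± 0.29 (SE under the stricter filter). The limma adjusted p was 0.0192 under that filter, and 0.000655 to 0.394 over the alternatives with all 4 libraries. Lcn2, encoding lipocalin-2, had 28833 and 28096 in the rIL17 libraries, against 8448 and 8498 in the PBS libraries, a log2 fold change of 1.75. Cebpd, a transcription factor gene, had a log2 fold change of 1.31. Nfkbid, which shares the stem-loop type of Nfkbiz, had 125 and 130.4 in the rIL17 libraries and 128 and 148 in the PBS libraries, and the groups overlapped. It too was chosen after its values were seen. Steady-state RNA does not separate synthesis from decay, so mRNA half-lives were not measured here.

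**Figure D5:**
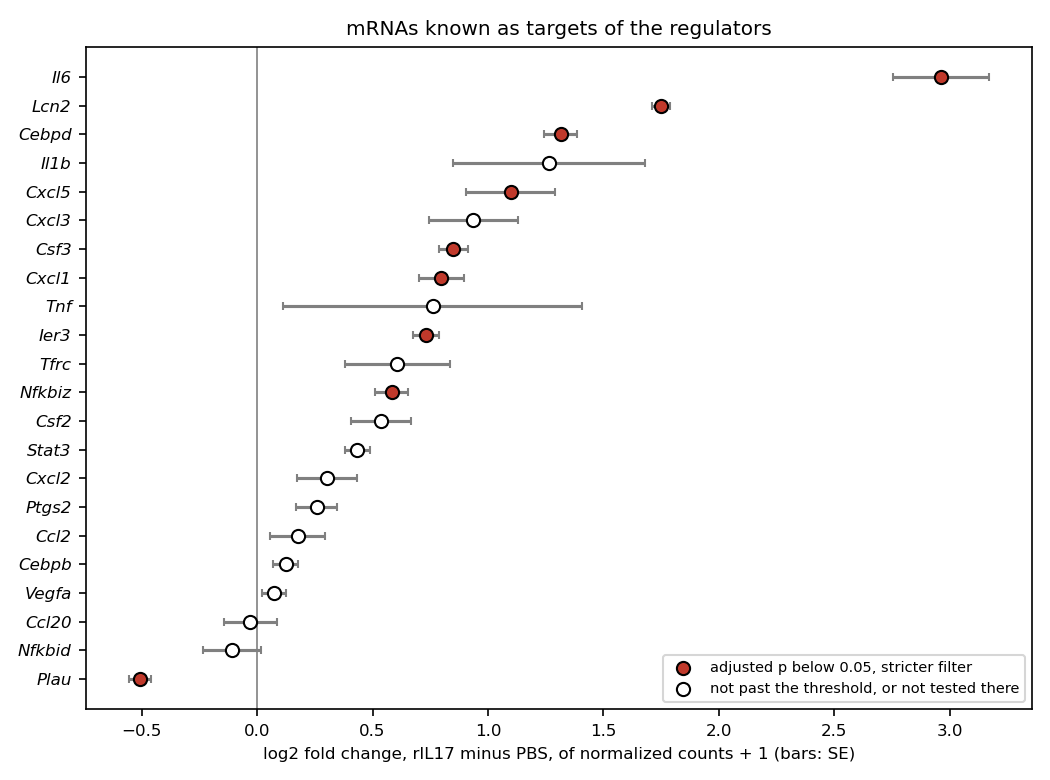
Log2 fold change of rIL17 minus PBS for 22 mRNAs listed as targets of the regulators, with bars of 1 SE from the fit to all 20677 genes. Filled points passed limma's test at an adjusted p below 0.05 under the stricter filter. Il6 is highest at 2.96, and Plau is the only filled point below 0, at -0.51.

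The elements were common in the target list. UAUUUAU occurred in 15 of the 22 3′ UTRs, at 2.54 per kb, and the stem-loops in 9, at 0.706 per kb. Of the 8 targets that rose under the stricter filter 6 had the heptamer, 3 had a stem-loop and 7 had either. Of the 13 that were not called or not tested there, 8 had the heptamer, 5 had a stem-loop and 10 had either. Lcn2 held neither in a 3′ UTR of 232 bases, and neither did Cebpb (506 bases), Vegfa (315 bases) and Stat3 (1895 bases). These lengths are those of the 1 transcript searched, and sites in other 3′ UTRs of these genes would be missed. Csf2 held 9 copies of the heptamer in 317 bases and had a log2 fold change of 0.54 (limma adjusted p = 0.373), and Cxcl1 held 6 copies in 592 bases and had 0.80. Csf2 and Cxcl1 were chosen after their values were seen.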

How the data were processed

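The deposited table holds 1 normalized signal value per gene and library, handled as a read count divided by a factor for each library, because in every library, 100% of the values lay within 0.001 of a whole multiple of 1 step. CASAVA, HISAT2 2.0.5, featureCounts 1.5.0-p3 and the build mm10 are listed, per the submitters' processing notes, and per the labels' protocols a directional kit was used. Annotation release, strand setting and scaling tool were not given in the sources used here. Reads per library were recovered as the value divided by the step. Because the columns are not raw counts, the main fit used no count model. Limma-voom, which is made for counts, was run on these normalized values as an alternative only.

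Genes whose mean reached 1 normalized count in either group were tested with limma 3.58.1 (R 4.3.3), with a mean-variance trend on log2(normalized count + 1) and a term for treatment alone, over all 4 libraries, with Benjamini-Hochberg adjustment over all genes tested. The stricter filter kept genes with 10 or more normalized counts in all libraries of a group and a mean CPM of 1 or more. The GC correction was a loess (span 0.5) fitted in each library to log2 values against the longest transcript's GC content. Other alternatives were upper-quartile and total-count scaling, no filter, a pseudocount of 0.1, robust shrinkage, limma-voom, the replicate number as a block and each library left out. The scripts were tested on simulated data. Symbols were matched for 21819 of 21840 rows with GENCODE M21 on GRCm38. All 10 regulators are named, and from each other list the 3 genes with the smallest p, of which 1 is not reported here. The members and lists were chosen with earlier results of these data known. Where a gene overlaps another on the same strand, their reads cannot be told apart. For genes on opposite strands this depends on the strand setting, which was not given.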

Additional observations from a re-analysis of the deposited data

How the results depend on the processing

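Over the table, 0 genes passed, and 0 also with upper-quartile scaling, no filter, a pseudocount of 0.1, the replicate block (replicates 1 and 2 as pairs) and each library left out. With total-count scaling and with limma-voom 1 passed each, with robust shrinkage 268, with the GC correction 69 and with GC correction plus the block 684. Under the stricter filter 101 passed, 332 with the GC correction, 1032 with the block, 510 with both, 191 with limma-voom, 153 with robust shrinkage and 161 with upper-quartile scaling. Leaving out a library under that filter gave 1 to 2773: 1 with either rIL17 library left out, 2773 without PBS replicate 1 and 692 without PBS replicate 2.

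Of the regulators, 2 passed with robust shrinkage (Zc3h12a, Rc3h2), among 268 of 20677 genes. With GC correction plus block 2 passed (Zc3h12a, Srsf1), among 684 of 20658 genes. Under the stricter filter 1 passed with the GC correction (Zc3h12a), among 332 of 12507 genes. With the block 3 passed there (Zc3h12a, Rc3h2, Srsf1), among 1032 of 12515 genes. With both 2 passed, among 510 of 12507, and with robust shrinkage 1 (Zc3h12a), among 153 of 12515. With a library left out, the regulators' median log2 fold change lay between 0.08 (without PBS replicate 2) and 0.34 (without PBS replicate 1). Of the targets, 0 to 12 passed over the alternatives that kept all 4 libraries. Same-numbered libraries had deviations that correlated at 0.157 over 12515 genes; no label says that the number marks a shared batch, so they share only a number.

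Of 578 values for the 25 genes that the naming rule gave, 478 kept their direction and side of the threshold, 77 passed it (among genes that are neither regulators nor targets, Arid5b in 5 alternatives, Cnot6l, Cnot7 and Ddx3x in 3 each, and Tia1 and Pum2 in 2 each) and 23 turned sign. Those were Zc3h12c at -0.11 (GC correction with or without the block; without PBS replicate 2 with either filter) and -0.15 (GC correction under the stricter filter, with or without the block); with a library left out it lay between -0.11 and 0.40. Zfp36l2 was -0.037 with upper-quartile scaling, -0.0172 with total-count scaling and -0.0175 with limma-voom (-0.0173 under the stricter filter). It was -0.0085 without rIL17 replicate 2, and lay between -0.077 (without PBS replicate 2) and 0.10 with a library left out. Arid5a was 0.092 and 0.085 with the GC correction under the wider and stricter filter, and Cnot6l and Ikbkb were -0.071 and 0.00065 with it under the stricter filter, with or without the block. The cause was not tested. A library left out leaves 1 in its group, which is assumed to vary like the other group. Limma-voom, robust shrinkage, upper-quartile scaling and GC correction with the block under the stricter filter were chosen after seeing the data. Tests on recovered reads were planned and not run. With 2 libraries per group, the intervals given cover only the variation among these libraries in the main fit. They do not cover the choice of processing. For Rc3h2 the interval was 0.25 to 1.18, while the GC correction under the stricter filter gave 0.19.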

Other observations

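Among the 36 decay genes tested, 12 had both rIL17 libraries above both PBS libraries, against 25.4% of all genes, and 8 had both below, against 20.0%. The genes named here were chosen after their values were seen. Of 10 exosome genes, 8 had lower values in rIL17 cells and 2 higher, with log2 fold changes from -0.18 to 0.05. The rIL17 libraries lay below both PBS libraries for 5 of them (Exosc1, Exosc5, Exosc7, Exosc8 and Exosc10), and the other 5 overlapped. With the GC correction 6 were lower and 4 higher, from -0.27 to 0.11. Btg2, an antiproliferative gene whose product binds the deadenylase, had 76.4 and 63.2 normalized counts in the rIL17 libraries and 95.2 and 89.5 in the PBS libraries, a log2 fold change of -0.40 (limma adjusted p = 0.417). The genes above included the decapping genes Dcp1a, Dcp1b and Dcp2, at 0.15, 0.05 and 0.38, and with the GC correction at 0.22, 0.14 and 0.22. Xrn1, the 5′ to 3′ exonuclease gene, had 1476 and 1385 normalized counts in the rIL17 libraries and 1297 and 1045 in the PBS libraries, a log2 fold change of 0.30, and 0.08 with the GC correction. None of these passed limma's test at an adjusted p below 0.05 over all genes.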
